A study of Rattus norvegicus with 96 samples.

Results

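Collagens, laminins and integrins were followed in 3 brain regions (VTA, NAc core, NAc shell) of rats after repeated nicotine (NIC) or saline (SAL), together with the ADAMTS and MMP proteases that cut the extracellular matrix and the TIMP proteins that inhibit metalloproteinases. A row of the count table was taken when its symbol, read from the gene lists that accompany the study, was that of a collagen chain, a laminin chain, an integrin subunit, an ADAMTS or ADAMTS-like gene, an MMP or a TIMP. Col1a1, Col1a2 and Col3a1 were not taken. This gave 75 of 17637 genes, and all 75 were among the 16879 genes with enough counts to be tested. They were 28 collagens, 8 laminins, 16 integrins, 12 ADAMTS proteases, 3 ADAMTS-like genes, 4 MMP genes, 3 TIMP genes and Col4a3bp, a ceramide transfer protein that matched by its name and is not a collagen.

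The choice of genes bears on what can be read from them. Only 7964 of the 17637 genes had a symbol in those lists, and 68 of the 75 were named in lists selected on the NIC minus SAL difference in these same rats. NIC differences are therefore given as a description, without a test, and nothing is read from their number. Differences between regions and between sexes were not used to choose the genes and were tested. The sex comparison includes the NIC rats whose differences from SAL rats of the same sex gave most of the names, so it is also given in SAL rats alone. The SAL rats entered those differences too, so the comparison in SAL rats is not free of the choice either.

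The animals were F1 rats of the inbred F344 and BN strains, bred in both directions of the cross. The labels do not say which direction a rat came from, so it could not be used. Of the 16 males and 16 females, 8 of each sex were injected with 0.4 mg/kg NIC (as base) on each of 4 days and 8 with SAL, and all were then left in their cages until tissue was taken, on day 17 by the labels. No rat received NIC again before that, and the labels give no age for the rats that were sequenced. The 94 libraries used, each of 1 region of 1 rat, covered VTA (31 rats), NAc core (31) and NAc shell (32), with 7 to 8 rats per sex, region and treatment. Levels are given as CPM (library-scaled estimated counts, with TMM factors), which is not per transcript length, so that a gene is compared only with itself.

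Depth ran from 15.87 to 27.74 M counts per library, with a median of 19.87 M. A dissected piece of tissue also carries vessels, meninges and neighboring structures, and 3 libraries stood apart in region markers. Female VTA NIC 2 had a summed level of 5 dopamine neuron genes of 67.7 CPM, against 951.6 to 2683 CPM in the other 30 VTA libraries and 9.79 to 27.0 CPM in NAc. The same library had 2705 CPM of choroid plexus markers, against 7.22 to 916 CPM in the other VTA libraries. Male NAc core SAL 1 and male NAc shell SAL 1 had 269 and 200 CPM of 5 striatal projection neuron genes, against 520 to 3933 CPM in the other 61 NAc libraries. Values are given with these 3 libraries, and the main counts by region, sex and treatment also without those that enter them.

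Type IV collagen chains join in trimers and form the network of basement membranes, onto which laminins, each a trimer of an alpha, a beta and a gamma chain, assemble as a second sheet. In the brain these sheets lie around vessels and under the pia, while the space between neurons holds little fibrillar collagen. Integrins are pairs of an alpha and a beta subunit through which cells bind laminin, collagen or fibronectin, and ADAMTS proteases, MMPs and TIMPs set how the matrix is processed and removed.

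Most of the 75 genes had a higher level in VTA than in either part of the NAc. At a Benjamini-Hochberg adjusted p under 0.05 in edgeR's quasi-likelihood test, taken over all 16879 genes, 49 were higher and 16 lower in VTA than in NAc core. Over all genes tested, 81.6% differed in this comparison, 41.3% being higher and 40.3% lower in VTA. The median log2 difference of the 75 genes was 0.46, against 0.01 for all genes. Against NAc shell, 47 were higher and 17 lower in VTA, where 80.8% of all genes differed, 40.5% higher and 40.4% lower. NAc core and NAc shell differed in 37 of the 75, 11 higher and 26 lower in core, beside 32.3% of all genes (15.8% higher and 16.5% lower). Without the 3 libraries that stood apart, the counts were 65, 62 and 42 in place of 65, 64 and 37. The plot of region differences by gene family shows that few families moved as a whole.

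**Figure D1:**
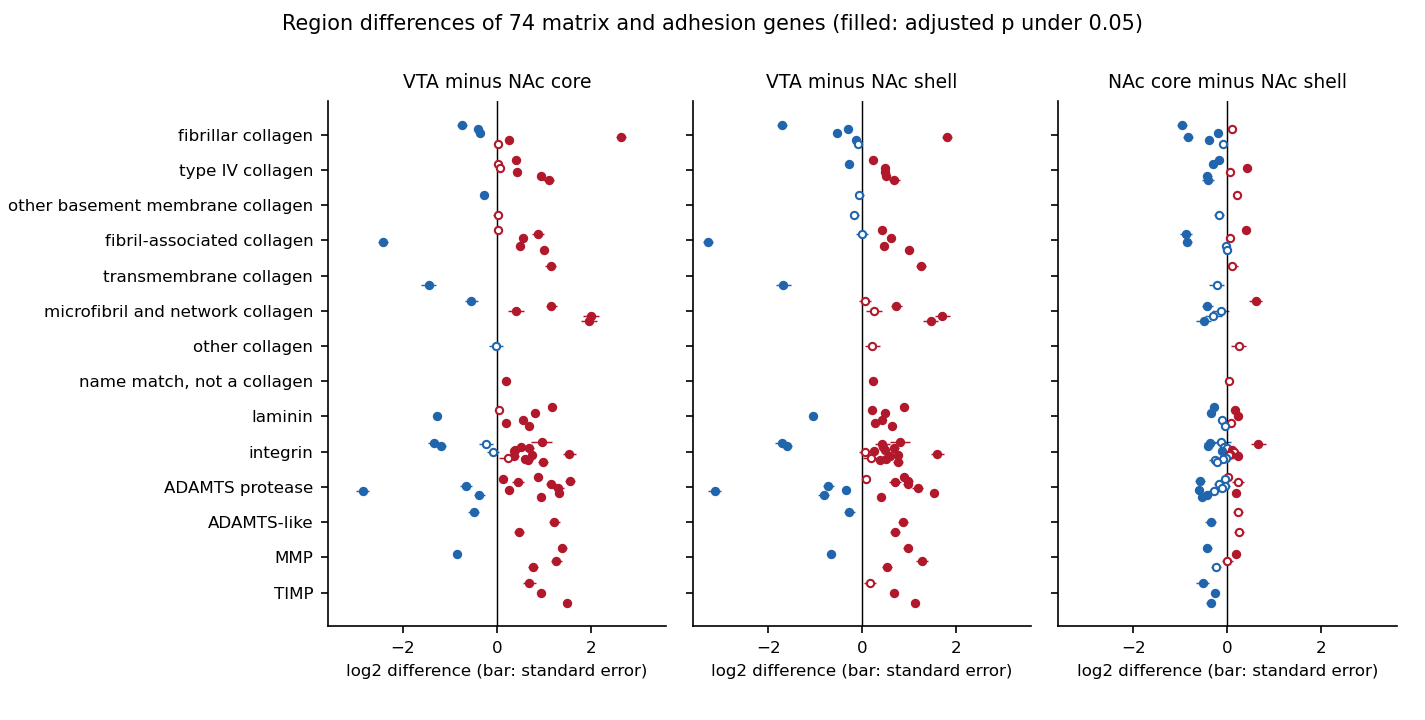
Each point is 1 of 74 of the 75 genes, placed by its log2 difference between regions (x axis, from the fit to 94 libraries) in the row of its family, with bars for the standard error and filled points for an adjusted p under 0.05. VTA minus NAc core and VTA minus NAc shell ran from -2.86 to 2.64 and from -3.27 to 1.81, and NAc core minus NAc shell from -0.96 to 0.66.

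The 6 type IV collagen genes did not share a regional pattern. They lie in the genome as 3 head-to-head pairs, Col4a1 with Col4a2, Col4a3 with Col4a4 and Col4a5 with Col4a6, each transcribed away from a common stretch of DNA. In Col4a1 the level was 60.04 to 149.3 CPM in VTA (median 94.14, n = 31), 57.46 to 93.61 in NAc core (median 71.27, n = 31) and 63.36 to 99.88 in NAc shell (median 80.42, n = 32). The ranges overlapped, and VTA was above NAc core in 27 of 30 rats with both regions (log2 difference 0.42 ± 0.05, standard error, adjusted p = 1.612e-12). Its partner Col4a2 had median levels of 72.45 (VTA), 71.16 (core) and 89.27 CPM (shell). Col4a2 was thus higher in shell than in VTA, the reverse of Col4a1 (VTA minus shell -0.28 ± 0.05, adjusted p = 5.38e-07, against 0.23 ± 0.05 for Col4a1, adjusted p = 1.289e-05), and VTA and core did not differ beyond their spread (0.03 ± 0.05, adjusted p = 0.5634). The difference between the chains was not itself tested.

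Col4a3 and Col4a4, whose chains form the collagen of the glomerular basement membrane with that of Col4a5, also had different orders. Col4a3 had medians of 10.85 CPM in VTA, 11.03 in core and 8.189 in shell, and was lower in shell than in both other regions (core minus shell 0.41 ± 0.08, adjusted p = 3.204e-05). Col4a4 was higher in VTA, with a median of 30.94 CPM against 23.15 in core and 21.55 in shell, and core and shell did not differ beyond their spread (0.06 ± 0.05, adjusted p = 0.4315). The X-linked pair followed the same order in both members, highest in VTA and lowest in core. The medians of Col4a5 were 32.09, 17.0 and 23.16 CPM in VTA, core and shell, a VTA minus core difference of 0.94 ± 0.09 (adjusted p = 4.346e-16). Those of Col4a6 were 5.218, 2.554 and 3.233 CPM, a difference of 1.10 ± 0.12 (adjusted p = 1.176e-13).

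The DNA at the starts is shown because the pairs differ in how close their starts lie. In the RefSeq annotation of GRCr8 the starts of Col4a1 and Col4a2 were 77 bases apart, those of Col4a3 and Col4a4 413 and those of Col4a5 and Col4a6 1415, so that the first pair is given by the 76 bases between the starts, at chr16:84885521-84885596, and the others by the 250 bases before each start. Those of Col4a3 lie at chr9:91323740-91323989 and of Col4a4 at chr9:91323578-91323827, those of Col4a5 at chrX:109907109-109907358 and of Col4a6 at chrX:109905945-109906194. Col4a1, Col4a3 and Col4a5 are read on the plus strand and Col4a4 and Col4a6 on the minus strand, each 5′ to 3′ toward its own start, with GC boxes (GGGCGG, or CCGCCC on the other strand) in capitals.
Col4a1 and Col4a2: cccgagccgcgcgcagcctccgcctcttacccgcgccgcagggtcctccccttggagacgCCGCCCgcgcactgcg
Col4a3: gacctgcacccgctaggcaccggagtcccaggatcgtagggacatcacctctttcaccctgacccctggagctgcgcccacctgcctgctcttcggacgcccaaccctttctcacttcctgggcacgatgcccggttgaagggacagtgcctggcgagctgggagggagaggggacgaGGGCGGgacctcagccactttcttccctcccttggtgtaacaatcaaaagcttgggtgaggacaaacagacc
Col4a4: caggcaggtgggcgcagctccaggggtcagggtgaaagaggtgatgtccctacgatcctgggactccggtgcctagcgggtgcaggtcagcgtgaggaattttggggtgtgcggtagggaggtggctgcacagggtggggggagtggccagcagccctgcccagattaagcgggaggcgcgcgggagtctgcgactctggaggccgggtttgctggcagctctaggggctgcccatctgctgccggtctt
Col4a5: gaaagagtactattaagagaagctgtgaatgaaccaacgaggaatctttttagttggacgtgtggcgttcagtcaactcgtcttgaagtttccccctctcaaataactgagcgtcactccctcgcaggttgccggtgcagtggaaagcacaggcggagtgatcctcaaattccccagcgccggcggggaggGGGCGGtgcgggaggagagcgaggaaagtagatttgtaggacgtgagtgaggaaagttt
Col4a6: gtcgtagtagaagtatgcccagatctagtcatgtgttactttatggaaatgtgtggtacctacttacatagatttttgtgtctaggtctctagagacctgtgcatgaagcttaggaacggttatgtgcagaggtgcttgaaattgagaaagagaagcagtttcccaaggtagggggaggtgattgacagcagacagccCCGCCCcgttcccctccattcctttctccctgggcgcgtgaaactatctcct
A GC box was found in each of these stretches but that of Col4a4. Of the 75 genes, 60 had an entry among the RefSeq promoters, with 61 start sites, and 38 of these (62.3%) held a GC box in the 250 bases before the start, against 10197 of 33469 promoters (30.5%). CCAAT (or ATTGG) was found in 27.9% of the 61 and 34.0% of all, and TATAAA (or TTTATA) in 11.5% and 12.9%. The 75 genes all had enough counts to be tested, while the 33469 promoters were not limited to such genes, so the sets are unlike. Such matches describe the letters only.

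Laminin chains divided between VTA and NAc. Lama2, the alpha chain whose loss causes a congenital muscular dystrophy with white matter changes, was at 12.53 to 33.09 CPM in VTA (median 23.76), 6.96 to 14.67 in NAc core (median 9.793) and 7.371 to 17.3 in NAc shell (median 12.28). Every rat with both regions had more Lama2 in VTA than in core (30 of 30) and in shell (31 of 31), a difference of 1.18 ± 0.07 from core (adjusted p = 9.399e-28). Lama5, a chain of vessel laminins, differed in the same direction (0.82 ± 0.08, adjusted p = 7.758e-17). So did Lamb2 (0.55 ± 0.07, adjusted p = 1.32e-11), its partner in vessel laminins, and Lamc3, a gamma chain (0.68 ± 0.07, adjusted p = 2.62e-15). The broadly used Lamc1 differed less (0.20 ± 0.05, adjusted p = 0.0004095), and Lama4, the endothelial alpha chain, did not differ between VTA and core beyond its spread (0.05 ± 0.05, adjusted p = 0.4117).

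Lamb1, the beta chain of the classical laminin trimer, was at 5.714 to 33.78 CPM in VTA (median 14.57), 28.22 to 46.72 in NAc core (median 37.03) and 20.18 to 45.36 in NAc shell (median 31.97). VTA was below core in 30 of 30 rats (-1.27 ± 0.08, adjusted p = 1.065e-25), the reverse of Lamb2.

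**Figure D2:**
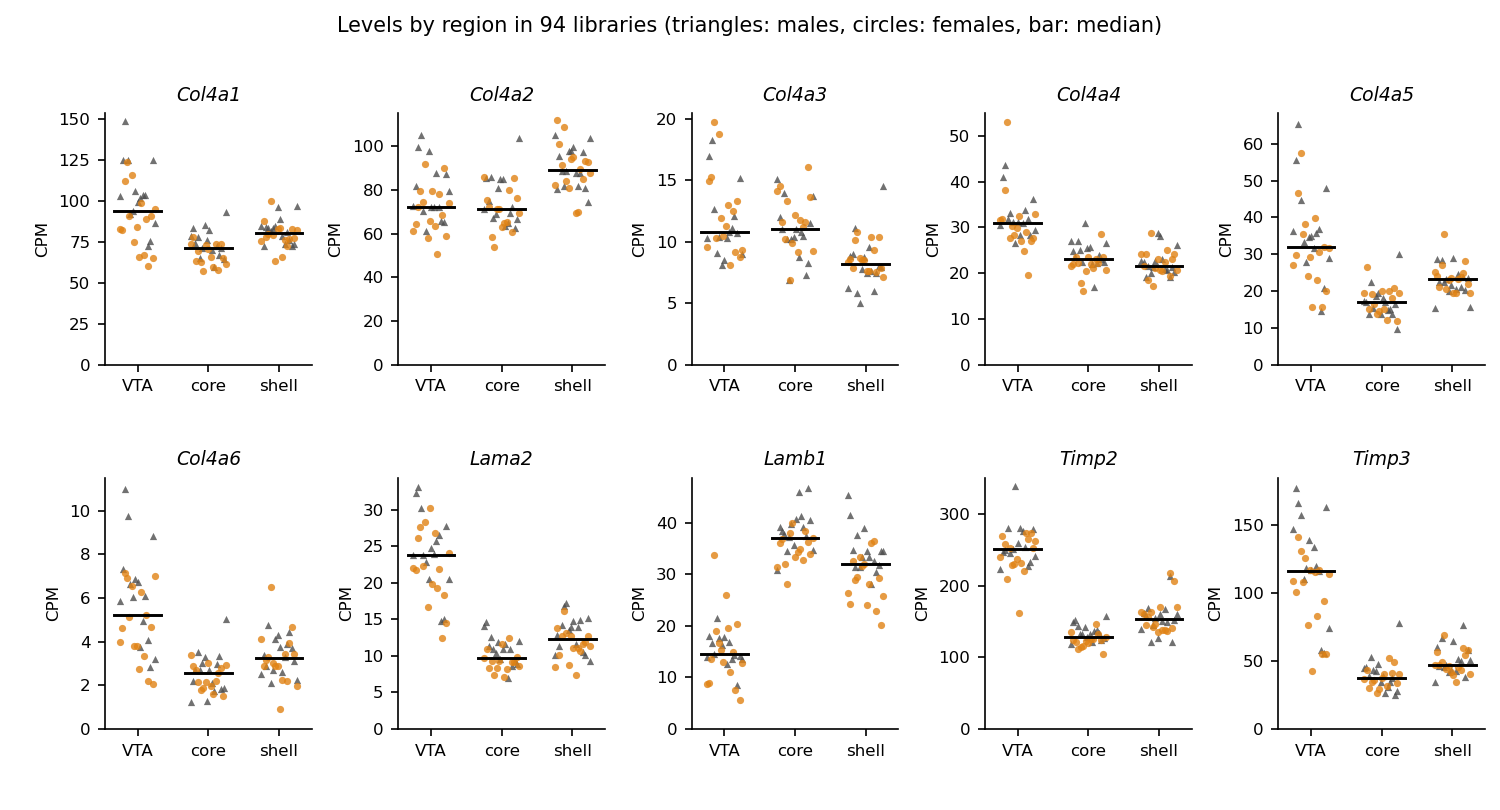
Level in CPM (y axis, from 0) of the 6 type IV collagen genes, Lama2, Lamb1, Timp2 and Timp3 by region (x axis), with 1 point per library of 94, triangles for males, circles for females and a bar for the median. Timp2 had medians of 250.6, 127.6 and 153.6 CPM in VTA, core and shell, with 2 VTA libraries, at 162 and 209 CPM, within the range of the shell libraries, while Lamb1 had its lowest median in VTA.

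Of the 6 fibrillar collagen genes, 3 were lower and 2 higher in VTA than in core, and 4 were lower and 1 higher in VTA than in shell. Col2a1, the main fibrillar collagen of cartilage, was higher in VTA in both comparisons. It was at 11.82 to 32.01 CPM in VTA (median 20.53), 1.571 to 6.852 in NAc core (median 3.353) and 3.697 to 14.69 in NAc shell (median 5.015), so that VTA and core did not overlap. Its VTA minus core difference of 2.64 ± 0.11 was the most positive of the 75 (adjusted p = 1.582e-39). Ranges without overlap were seen for 6 of the 75 genes between VTA and core (9.85% of all genes), namely Adamts4, Col2a1, Col9a1, Col9a3, Itga3 and Timp2. Between VTA and shell there were 5 (6.55% of all genes), Adamts4, Col9a1, Col9a3, Itga2b and Itga3, and between core and shell 0 (0.00592%, a single gene).

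Col11a1, a chain of the thin fibrils that contain Col2a1 in cartilage, was lower in VTA. Its medians were 25.98 CPM in VTA, 40.32 in core and 85.68 in shell, and core was below shell in 29 of 31 rats (-0.96 ± 0.11, adjusted p = 7.832e-12). Col11a2 was lower in VTA than in core by less (-0.41 ± 0.04, adjusted p = 4.257e-14), and Col27a1 likewise (-0.36 ± 0.07, adjusted p = 9.414e-07). Col9a1, an alpha chain of the collagen that coats Col2a1 fibrils, was at 0.3686 to 2.436 CPM in VTA, 4.379 to 12.77 in core and 7.215 to 22.47 in shell, with VTA below every NAc library (-2.42 ± 0.10 against core, adjusted p = 2.188e-37). The other chains of that collagen went the opposite way: Col9a3 was at 32.14 to 52.81 CPM in VTA and 13.14 to 24.72 in core (1.01 ± 0.05, adjusted p = 1.953e-32). Col14a1, a fibril-associated collagen of connective tissue, was lower in core than in shell (-0.88 ± 0.13, adjusted p = 4.997e-08) and did not differ between VTA and shell beyond its spread over both sexes (-0.00 ± 0.13, adjusted p = 0.9768). VTA minus shell was 0.43 in males and -0.44 in females for this gene (adjusted p of the difference 0.02213, and 0.06008 without the 3 libraries that stood apart).

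Of the 16 integrins, 11 were higher and 2 lower in VTA than in NAc core. Itgb1, the beta subunit shared by most collagen and laminin receptors, was at 108.6 to 233.4 CPM in VTA (median 175.9), 91.96 to 138.1 in core (median 113.8) and 101.7 to 139.6 in shell (median 120.1). VTA was above core in 29 of 30 rats (0.60 ± 0.04, adjusted p = 1.211e-25), while core and shell did not differ at the threshold (-0.09 ± 0.04, adjusted p = 0.05323). Its laminin-binding partners differed in the same direction, Itga6 by 0.40 ± 0.03 (adjusted p = 6.566e-23) and Itga7 by 0.36 ± 0.04 (adjusted p = 4.31e-12). Itga10, a collagen-binding subunit known from cartilage, was lower in VTA in 29 of 30 rats (-1.34 ± 0.14, adjusted p = 2.435e-15) and in 31 of 31 against shell (-1.71 ± 0.13, adjusted p = 7.892e-21). Itgam, the alpha subunit of the complement receptor of microglia and other myeloid cells, had medians of 11.53, 6.55 and 6.537 CPM in VTA, core and shell (0.74 ± 0.05 against core, adjusted p = 9.082e-23). Itgax, a myeloid subunit close to it, was at a median of 0.8051 CPM in VTA and 0.6833 in core, and no difference was detectable at this depth (0.24 ± 0.19, adjusted p = 0.2342).

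ADAMTS proteases differed between regions in both directions. Adamts3, which trims procollagen and activates the lymphatic growth factor VEGF-C, was at 0.7876 to 8.179 CPM in VTA (median 1.808), 5.424 to 31.95 in core (median 16.01) and 4.746 to 26.36 in shell (median 18.89). VTA was the lowest region in all rats with both regions, by -2.86 ± 0.14 against core (adjusted p = 4.058e-33) and -3.14 ± 0.14 against shell (adjusted p = 7.656e-36). Adamts15, a protease of versican and other hyaluronan-binding proteoglycans, was higher in VTA, 2.21-fold against core (adjusted p = 9.527e-17) and by 0.97 ± 0.11 on the log2 scale against shell (adjusted p = 8.22e-14). Adamts10, linked to fibrillin fibers, had medians of 97.46, 91.5 and 92.85 CPM and differed from core by 0.13 ± 0.06 (adjusted p = 0.03343). Of the 15 ADAMTS and ADAMTS-like genes 11 were higher and 4 lower in VTA than in core.

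Among the remaining enzymes and inhibitors, Mmp14, a membrane-bound collagenase that activates Mmp2, had medians of 19.21, 6.687 and 8.684 CPM in VTA, core and shell, 2.63-fold higher in VTA than in core (adjusted p = 4.194e-22). Mmp16, a related membrane-bound enzyme, was lower in VTA than in core in 30 of 30 rats (-0.84 ± 0.05, adjusted p = 4.87e-29). All 3 TIMP genes were higher in VTA than in core and lower in core than in shell. Timp2, the inhibitor that also takes part in Mmp2 activation, was at 161.9 to 338.5 CPM in VTA (median 250.6), 104.2 to 158.1 in core (median 127.6) and 121 to 217.9 in shell (median 153.6), and VTA exceeded core by 0.94 ± 0.04 (adjusted p = 9.142e-36). Timp3, which binds to the matrix, exceeded core by 1.49 ± 0.09 (adjusted p = 4.037e-27) and Timp1, an injury-responsive inhibitor, by 0.69 ± 0.14 (adjusted p = 4.873e-06). Col4a3bp, the name match, differed by 0.20 ± 0.05 (adjusted p = 6.492e-05).

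Other genes of the same matrix were compared in the same way. Over all genes 81.6% differed between VTA and NAc core (41.3% higher and 40.3% lower in VTA), and 16.5% were lower in core than in shell. Of 10 named basement membrane partners 9 were higher and 1 lower in VTA than in NAc core at an adjusted p under 0.05. Nid1, which links laminin to type IV collagen, was higher by 1.33 ± 0.09, and Agrn, the heparan sulfate proteoglycan agrin, was lower by -0.49 ± 0.03. Of 12 fibroblast matrix genes, 12 were higher in VTA than in core and 9 lower in core than in shell, Dcn (decorin) being higher in VTA by 1.72 ± 0.13. Of 9 collagen folding and crosslinking genes 6 were higher and 1 lower in VTA, and of 9 genes of the perineuronal net 4 were higher and 5 lower.

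Markers of other cell types moved with these regional differences, beside 41.3% of all genes higher and 40.3% lower in VTA than in core. All 4 named oligodendrocyte markers were higher in VTA than in core (median of summed levels 37000 and 12100 CPM), as were 7 of 7 choroid plexus and 3 of 3 oligodendrocyte precursor markers. Of the astrocyte markers 3 of 4 and of the microglia markers 4 of 5 were higher, and the remaining 1 of each was lower. All 9 named meningeal fibroblast markers were higher in VTA than in core, and their summed level was 162 to 3030 CPM in VTA (median 1570), 176 to 1250 in core (median 529) and 363 to 1160 in shell (median 715). The 3 collagen genes left out of the 75, Col1a1, Col1a2 and Col3a1, are among these 9. The mural markers were higher in VTA than in core in 4 of 5 and the endothelial in 7 of 7. Summed mural markers had medians of 649, 356 and 451 CPM and endothelial markers of 521, 406 and 387 CPM in VTA, core and shell. Between core and shell, 5 of 9 fibroblast and 5 of 7 choroid plexus markers were lower in core, beside 16.5% of all genes. Higher in core were 4 of 4 oligodendrocyte and 5 of 7 endothelial markers, beside 15.8%. The part of these cell types in the regional differences was not tested, and in such bulk tissue more cells of a type and more RNA per cell cannot be told apart.

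NIC and SAL rats were compared within each sex and region, a comparison that asked whether expression still differed about 2 weeks after the last injection. No gene of the 16879 reached an adjusted p under 0.05 in any of the 6 comparisons in edgeR, and 0 of the 75 did in DESeq2, so genes are counted at the unadjusted p under 0.05 that the study used. In female VTA, 28 of the 75 genes were lower and 1 higher in NIC rats, beside 9.24% of all genes (5.2% lower and 4.04% higher). In male NAc core 24 were higher and 0 lower, beside 9.83% (5.78% higher and 4.06% lower). Since this contrast is the source of the names, these counts are given without a reading. The counts were 5 higher and 8 lower in female NAc core (6.45% of all genes, 2.87% higher and 3.57% lower) and 1 higher and 9 lower in female NAc shell (10.1%, 5.25% higher and 4.88% lower). They were 2 higher and 0 lower in male NAc shell (2.46%, 1.02% higher and 1.44% lower) and 8 higher and 4 lower in male VTA (5.62%, 2.35% higher and 3.28% lower). In female NAc core the larger direction turned without NIC 4 (7 higher and 6 lower). In male VTA it turned without NIC 11 (4 higher and 6 lower), NIC 12 (2 and 4) or SAL 7 (3 and 4).

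The log2 differences of the 75 genes, drawn in the map of NIC differences, are also given as a description, since this contrast gave most of the names. A difference between comparisons was not tested. The median log2 difference (NIC minus SAL) was -0.32 in female VTA, where 9 of 75 were above 0, and 0.16 in male NAc core, where 58 were above 0. It was 0.12 in male VTA with 56 above 0, and 0.06 in male NAc shell with 53. In female NAc core and shell it was -0.0047 and -0.09. The median of all genes was between -0.0064 and 0.016 in the 6 comparisons.

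**Figure D3:**
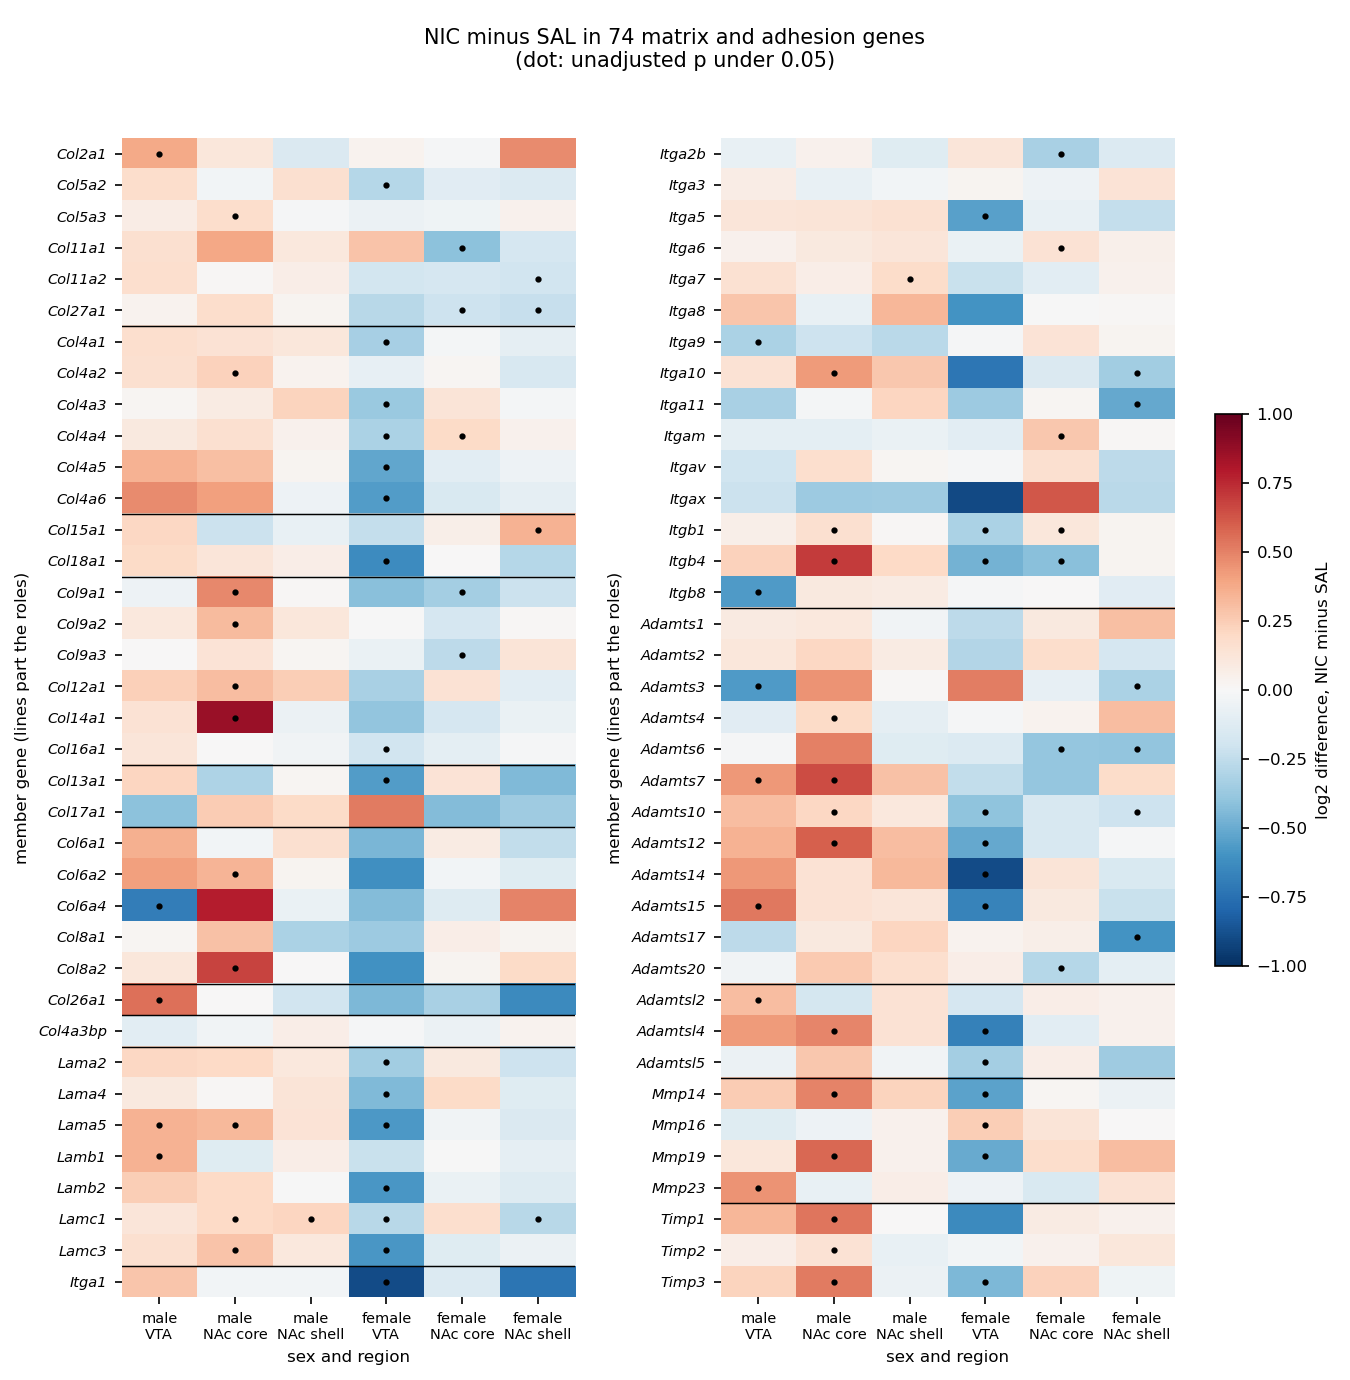
Log2 difference of NIC minus SAL (color, from -1 in blue to 1 in red) for 74 of the 75 genes (rows, lines between families) in the 6 comparisons (columns), with a dot for an unadjusted p under 0.05. The female VTA column is mostly blue and the male NAc core column mostly red, with 28 genes lower in the former and 24 higher in the latter at that threshold.

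The genes with the smallest p in female VTA were all laminins. Lamc3 was at 7.585 to 15.15 CPM in 8 NIC rats (median 12.67) and 15.17 to 23.76 CPM in 8 SAL rats (median 16.13). Every NIC rat was below every SAL rat, a log2 difference of -0.58 ± 0.14 (standard error). Lama4 was at 12.27 to 17.93 CPM with NIC (median 15.82) and 16.38 to 29.23 with SAL (median 19.89), and 4 of 8 NIC rats were below all SAL rats (-0.44 ± 0.11). Lamb2 was at 67.57 to 161.9 CPM with NIC (median 110.4) and 118.9 to 225.4 with SAL (median 152.6), with 5 of 8 NIC rats below all SAL rats (-0.58 ± 0.18). Of the type IV collagens, Col4a6 differed by -0.56 ± 0.23, Col4a5 by -0.52 ± 0.21, Col4a3 by -0.37 ± 0.17, Col4a1 by -0.33 ± 0.12 and Col4a4 by -0.31 ± 0.13, while Col4a2 was at -0.08 ± 0.11.

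In the same comparison Itgb1 differed by -0.32 ± 0.11, Mmp14 by -0.53 ± 0.24, Timp3 by -0.45 ± 0.20, Adamts15 by -0.67 ± 0.29 and Adamts10 by -0.41 ± 0.15. Mmp16 was the only gene of the 75 counted as higher. Itgam and Col4a3bp were at -0.10 ± 0.14 and -0.01 ± 0.09. Without female VTA NIC 2, the library low in dopamine neuron markers, 21 of the 75 were counted, all of them lower. Leaving out other rats gave 15 to 36, the lowest without SAL 12.

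For male NAc core, the 3 genes ranked first by p were a TIMP, a collagen and an integrin. Timp3 was at 34.52 to 77.93 CPM in 8 NIC rats (median 44.54) and 24.95 to 45.15 in 8 SAL rats (median 32.97), a difference of 0.52 ± 0.15. The groups overlapped, with 4 NIC rats above all SAL rats and NIC 9 far above the rest at 77.9 CPM. Col14a1 was at 1.445 to 4.758 CPM with NIC (median 2.191) and 0.8891 to 2.131 with SAL (median 1.2), and 8 of 8 NIC rats were above the SAL median (0.86 ± 0.26). Itgb4, the beta subunit of the laminin receptor of epithelia and some vessels, was at 8.587 to 28.66 CPM with NIC (median 20.16) and 6.904 to 18.36 with SAL (median 12.0), with 6 of 8 NIC rats above all SAL rats (0.70 ± 0.21). The other TIMP genes were at 0.54 ± 0.23 (Timp1) and 0.14 ± 0.05 (Timp2). Without NIC 9 the count of the 75 was 17 in place of 24, and without male NAc core SAL 1 it was 26.

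**Figure D4:**
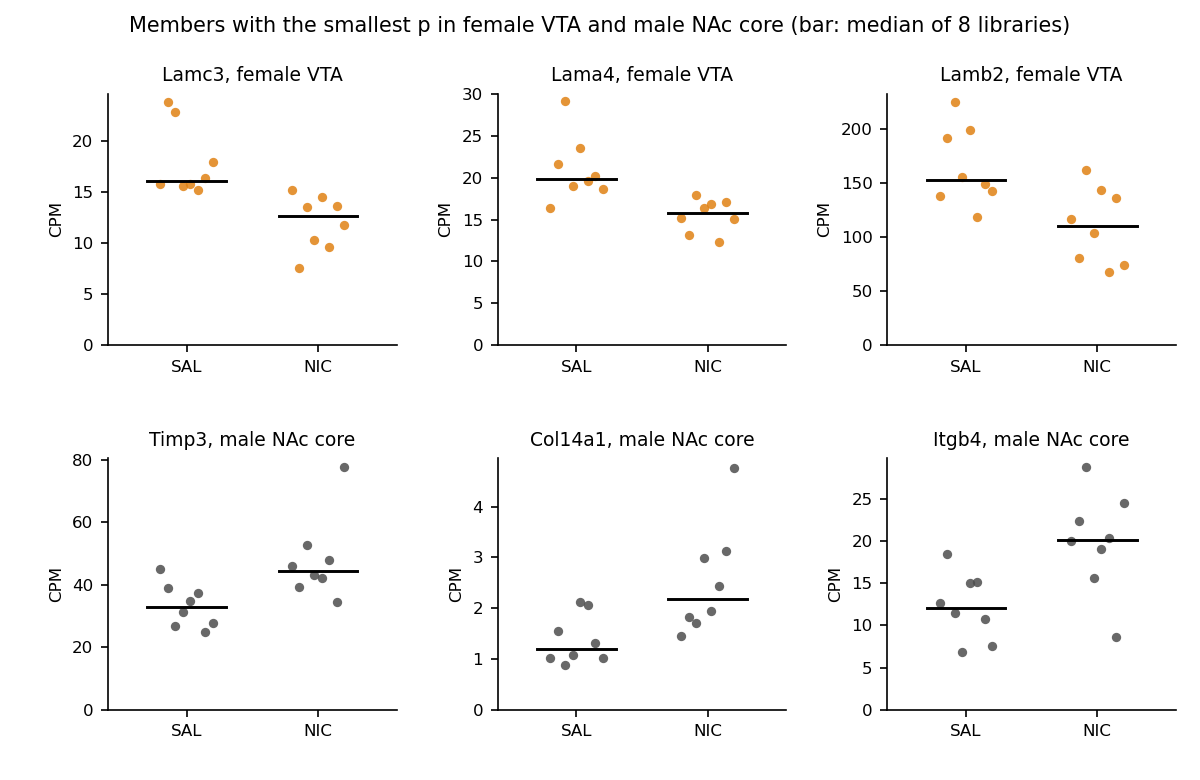
Level in CPM (y axis, from 0) per library in SAL and NIC rats for the 3 genes with the smallest p in female VTA (top) and in male NAc core (bottom), with 8 libraries per group and a bar for the median. The 8 NIC values of Lamc3 in female VTA lie below all 8 SAL values, and the other 5 genes overlap between groups.

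Genes with the smallest p in the remaining comparisons are given next. In female NAc core Itgb4 was at 7.852 to 11.85 CPM in 7 NIC rats (median 10.08) and 9.543 to 15.35 in 8 SAL rats (median 13.57), lower by -0.41 ± 0.11, the opposite of male core. Col9a3 and Col11a1 differed there by -0.26 ± 0.07 and -0.41 ± 0.14. In female NAc shell Lamc1, the gamma chain common to most laminins, was at 25.82 to 36.38 CPM with NIC (median 28.7) and 31.43 to 43.6 with SAL (median 35.01), 6 of 8 NIC rats being below all SAL rats (-0.28 ± 0.08). In male NAc shell the same gene was at 30.93 to 43.12 CPM with NIC (median 36.18) and 25.2 to 35.27 with SAL (median 30.92), higher by 0.21 ± 0.08 with 5 of 8 NIC rats above all SAL rats. Whether the sexes differed in this was not tested.

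Further genes with the smallest p in their comparison were Col27a1 (-0.23 ± 0.08) and Adamts6 (-0.39 ± 0.16) in female NAc shell, and Itga7 (0.18 ± 0.08) and Adamts12 (0.31 ± 0.15) in male NAc shell. In male VTA they were Adamts7 (0.43 ± 0.15), Lamb1 (0.34 ± 0.13) and Col6a4 (-0.69 ± 0.27). Col6a4 was at 0.3669 to 0.8716 CPM with NIC and 0.4611 to 1.385 with SAL, levels that rest on few reads. Without male NAc shell SAL 1, 6 of the 75 were counted in male NAc shell in place of 2.

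Of the 75 genes 10 were counted in 0 of the 6 comparisons, and Lamc1 in 4. Most of the names came from lists of such genes, so this is a description of the choice. Lamc1 itself was named only in other lists of the study. Just inside the threshold, by the smallest p over the 6 comparisons, were Itga9 (0.04902) and Col26a1 (0.04756), and just outside were Col17a1 (0.05261) and Itgax (0.05447).

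Some of the wider matrix lists held counted genes in the same comparisons and others few. A gene of these or of the marker lists entered only where the study's gene lists gave it a symbol. Some of those gene lists were selected on the NIC minus SAL difference in these same rats. The counts below are therefore also a description, without a reading. Of all genes, 5.2% were counted as lower and 4.04% as higher in female VTA. In male NAc core 5.78% were counted as higher and 4.06% as lower. Of the 10 basement membrane partners 6 were counted as lower in female VTA and 7 as higher in male NAc core, with Nid2, a partner of laminin, at -0.41 ± 0.16 and 0.29 ± 0.13. Of the 12 fibroblast matrix genes 6 were counted as lower and 6 as higher in these comparisons. Of the 9 collagen folding genes 5 were counted as lower in female VTA and 2 as higher in male NAc core, and of the 4 integrin adaptors 2 and 1. Of the 9 perineuronal net genes 0 were counted in female VTA, by edgeR at an unadjusted p under 0.05, and 1 as higher and 1 as lower in male NAc core. Of the 9 meningeal fibroblast markers, 9 were below 0 in female VTA, 3 of them counted, and 8 were counted as higher in male NAc core. Their summed level in female VTA was 162 to 1760 CPM in NIC rats (median 1030) and 743 to 2390 in SAL rats (median 1460), and in male NAc core 437 to 1250 (median 745) and 306 to 698 (median 557). Mural markers were at 195 to 801 CPM in NIC and 490 to 1510 CPM in SAL rats of female VTA, and endothelial markers at 342 to 547 and 458 to 850 CPM, with 4 of 5 and 5 of 7 counted as lower. Of other lists, 2 of 3 oligodendrocyte precursor, 1 of 4 astrocyte and 1 of 5 microglia markers were counted as lower in female VTA. In male NAc core 1 of 3 oligodendrocyte precursor and 1 of 4 oligodendrocyte markers were counted as higher, and the 1 cortical neuron marker as lower. In female NAc shell 5 of 5 striatal projection neuron markers were counted as lower, with summed levels of 919 to 1970 CPM in NIC (median 1430) and 1480 to 2100 CPM in SAL rats (median 1830). In male NAc core mural markers were at 323 to 589 CPM in NIC and 223 to 426 in SAL rats and endothelial markers at 406 to 543 and 339 to 503 CPM, with 2 of 5 and 3 of 7 counted as higher. In male VTA 2 of 4 oligodendrocyte and 1 of 5 mural markers were counted as lower. In male NAc shell 1 of 7 choroid plexus markers was counted as lower and 1 of 5 mural markers as higher. The part of these markers in the NIC differences was not tested.

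The prep batch of a library also moved with treatment, because few batches held rats of both treatments. In female VTA they were J (2 NIC and 2 SAL libraries) and L (1 and 2), and in male NAc core C alone (4 and 2). In female NAc core and shell it was J alone (2 and 2 in each). A fit with the batch as a covariate rests on these libraries for the NIC difference, so a changed count or direction is not read. With the batch as a covariate, 1 of the 75 genes was counted in female VTA (0 higher and 1 lower, median -0.14) and 21 in male NAc core (20 higher and 1 lower, median 0.29). The larger direction turned in female NAc core, with 6 higher and 2 lower, and in female NAc shell, with 2 higher and 1 lower (median 0.13 in place of -0.09).

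Libraries are compared next by the level of the 75 genes as a whole. Each library's mean deviation was taken over the 75 genes on the log2 scale, from the mean of its sex and region. The lowest were female VTA NIC 6 at -0.563, with 162 CPM of fibroblast markers, male VTA SAL 7 at -0.538 with 456 CPM and male VTA SAL 6 at -0.52 with 309 CPM. The highest were male VTA NIC 11 at 0.463 with 3030 CPM and female VTA SAL 12 at 0.439 with 2390 CPM. These extremes were in VTA, and they included rats of both treatments.

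**Figure D5:**
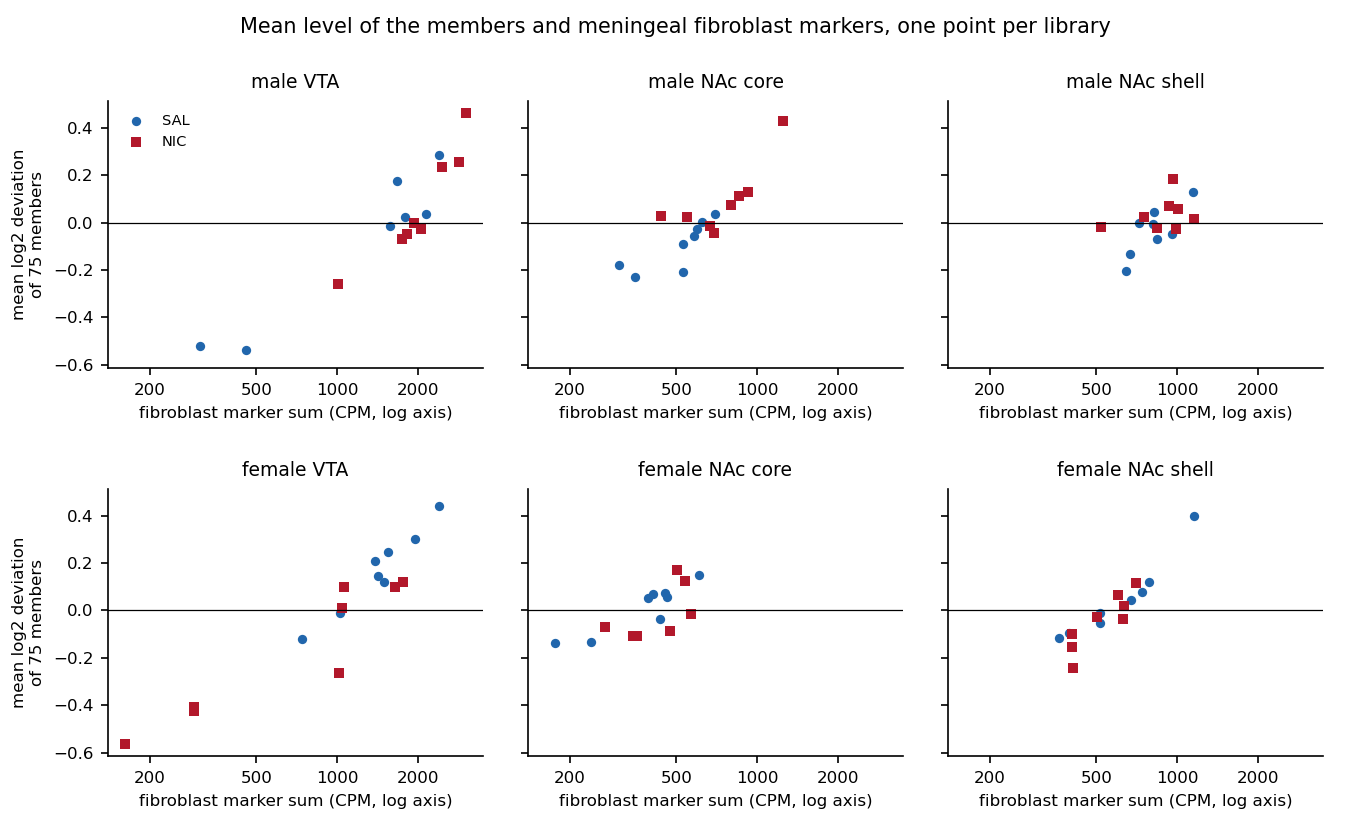
Mean log2 deviation of the 75 genes from the mean of the sex and region (y axis) against the summed CPM of 9 fibroblast markers (x axis, log scale) in 6 panels, with 1 point per library (circles SAL, squares NIC). In female VTA the deviation ran from -0.563 at 162 CPM to 0.439 at 2390 CPM.

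Within the 12 groups of sex, region and treatment, Pearson's r of a gene's log2 level with the log2 marker sum over the 94 libraries had a median of 0.399 over the 75 genes for fibroblast markers. It was above 0.5 for 29 genes and below 0 for 14, highest for Col6a2 (0.934) and lowest for Mmp16 (-0.313). The median was also 0.399 for mural markers (30 above 0.5 and 10 below 0), highest for Lamb2 (0.902). It was 0.369 for endothelial markers (22 above 0.5 and 11 below 0), highest for Adamts10 (0.77). For astrocyte, microglia and choroid plexus markers it was 0.217, 0.0673 and -0.0102. By family the median with fibroblast markers was 0.676 for TIMP genes, 0.584 for laminins and 0.523 for type IV collagens, and 0.0586 for fibrillar collagens. These values describe libraries that share depth, dissection and normalization, and the genes share the same libraries.

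Partner genes moved together to different degrees in the same libraries. The r was 0.649 for Col4a1 with Col4a2, 0.494 for Col4a3 with Col4a4 and 0.673 for Col4a5 with Col4a6, beside 0.723 for Col4a1 with Col4a5, which are on different chromosomes. Lama5 and Lamb2 had 0.853. Among the 75, the genes most like Col4a1 were Lamb2 (0.835), Lama5 (0.819) and Adamts10 (0.815), those most like Timp3 were Col4a5 (0.817), Col6a2 (0.785) and Lamb2 (0.772), and the gene most like Itgb1 was Col4a5 (0.777). Itgam with Itgax had -0.0397, and Col4a1 with the name match Col4a3bp had -0.0609.

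In NAc core 23 of the 75 were higher and 9 lower in males at an adjusted p under 0.05, in a test with treatment as a term, beside 32.9% of all genes (15.5% higher and 17.5% lower). In NAc shell 12 were higher and 7 lower (21.0% of all genes, 10.9% higher and 10.1% lower). In VTA 3 were higher and 0 lower (2.33% of all genes, 0.824% higher and 1.5% lower). The median male minus female difference was 0.12, 0.05 and 0.17 in core, shell and VTA, against -0.0057, 0.01 and 0.00066 for all genes. In SAL rats alone the larger count in core turned, with 8 higher and 15 lower beside 25.7% of all genes (12.5% higher and 13.2% lower). The median there stayed above 0, at 0.02, against -0.0044 for all genes. In shell SAL rats gave 0 higher and 2 lower beside 2.57% of all genes, with a median of -0.01. In VTA 0 reached the threshold in SAL rats in edgeR (4 at an unadjusted p under 0.05) beside 0.255% of all genes, with a median of -0.05. Without the libraries that stood apart the counts were 21 higher and 9 lower in core (30.8% of all genes, 16.3% higher and 14.6% lower) and 11 and 7 in shell (18.3%, 8.86% higher and 9.48% lower). Without female VTA NIC 2, 0 reached the threshold in VTA (18 at an unadjusted p under 0.05, with and without it), while the median difference was 0.16 in place of 0.17.

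Adamts2, which trims the ends of fibrillar procollagens, was at 7.436 to 15.67 CPM in 16 males (median 12.0) and 3.521 to 10.45 in 15 females (median 6.407) in NAc core. The ranges overlapped, and males were higher by 0.81 ± 0.12 (edgeR, adjusted p = 1.356e-05). Col17a1, a transmembrane collagen of hemidesmosomes, was lower in males in core (medians 1.681 and 3.052 CPM, -0.80 ± 0.19, adjusted p = 0.001479). It was also lower in males in shell (medians 1.779 and 3.819 CPM, -0.94 ± 0.23, adjusted p = 0.003492). In SAL rats alone Adamts2 differed by 0.80 ± 0.18 in core (adjusted p = 0.00318), and Col17a1 by -1.13 ± 0.22 in core (adjusted p = 0.001116) and -1.22 ± 0.36 in shell (adjusted p = 0.07702).

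Lama4 was higher in males in core (0.42 ± 0.07, adjusted p = 8.782e-05) and in shell (0.34 ± 0.07, adjusted p = 0.001761). In core its range was 16.07 to 26.92 CPM in males and 11.73 to 20.09 in females. In SAL rats alone the difference was 0.50 ± 0.12 in core (edgeR, adjusted p = 0.003883) and 0.21 ± 0.11 in shell (adjusted p = 0.3129). The 3 genes counted in VTA, 0 of them without female VTA NIC 2, were Lama4 (0.33 ± 0.09), Col5a3 (0.24 ± 0.06) and Lamc3 (0.44 ± 0.12). Lama4 and Lamc3 are also the genes with the smallest p between NIC and SAL in female VTA, and no test is given for them there. In SAL rats of VTA, Lama4 was at 0.05 ± 0.12, Col5a3 at 0.17 ± 0.05 (adjusted p = 0.2108) and Lamc3 at 0.06 ± 0.13. Mmp14 and Itgax had the largest differences in VTA without reaching the threshold (0.60 ± 0.20, adjusted p = 0.09549, and 0.60 ± 0.30, adjusted p = 0.2689), and were at 0.19 ± 0.24 and 0.26 ± 0.42 in SAL rats.

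Sex and prep batch cannot be told apart in NAc core, where no batch held both sexes. In NAc shell and VTA only batch L did, with 1 male NIC and 1 female SAL library in shell. In VTA it held 2 male NIC, 1 female NIC and 2 female SAL libraries. A fit with the batch as a term, an alternative chosen after the data were seen, therefore estimates sex from these few libraries. In it 0 of the 75 reached an adjusted p under 0.05 in either region in edgeR, with 10 and 4 at an unadjusted p under 0.05. With so few libraries, this absence is not read. Fibroblast markers moved with sex as well, 5 of 9 being higher in males in core and 5 of 9 in shell. Endothelial markers were higher in males in 3 of 7 in core and 3 of 7 in shell, and in core 4 of 7 choroid plexus and 2 of 4 oligodendrocyte markers were lower. The part of these markers was not tested. In NAc core all 5 striatal projection neuron markers were lower in males.

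Whether regional differences depended on sex was asked with an interaction test that was added after the data were seen. Nothing particular to the 75 genes is read from its counts. VTA minus NAc core differed between the sexes for 5 of the 75 genes at an adjusted p under 0.05 (edgeR), 4 more positive and 1 more negative in males, beside 11.3% of all genes (4.51% and 6.76%). VTA minus NAc shell differed for 8, 6 more positive and 2 more negative in males (6.71% of all genes, 2.52% and 4.19%). NAc core minus shell differed for 1, more positive in males (0.397% of all genes, 0.278% and 0.118%). Adamts1, a protease of proteoglycans outside the naming rule and chosen after its values were seen, was higher in VTA than in shell by 1.29 in males and 0.48 in females on the log2 scale (adjusted p = 0.0008842), and it was lower in males in shell (-0.91 ± 0.12, adjusted p = 2.406e-06). Without the 3 libraries that stood apart, 6, 2 and 2 genes reached the threshold in these comparisons in place of 5, 8 and 1, beside 10.3%, 2.79% and 0.729% of all genes. Col15a1, a collagen of the basement membrane zone that was likewise chosen after its values were seen, was 0.57 higher in core than in shell in males and -0.15 in females (adjusted p = 0.03245).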

How the data were processed

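RNA-seq libraries of VTA, NAc core and NAc shell were analysed as gene-level estimated counts that the authors deposited as whole numbers, made with fastp 0.20.0 and Salmon 0.12.0 on rat genome Rnor 6 and summed to genes with tximport. Of 96 libraries 94 were used: a repeat library of 1 rat (male VTA SAL 5) and female NAc core NIC 1, which the study's clustering leaves out, were not. A gene was kept where 3 or more libraries had over 10 counts after size-factor scaling (16879 genes). NIC and SAL were compared within each sex and region, regions over all 94 libraries with the 12 groups as terms, and sexes within each region, with edgeR 4.0.16 (quasi-likelihood, TMM) in R 4.3.3, using Benjamini-Hochberg adjustment over all genes. DESeq2 1.42.0 was an alternative, and the scripts were tested on simulated data. Log2 levels used a prior count of 2.

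Symbols came from the study's gene tables, whose values were not used (7964 identifiers). In 11 entries the symbol conflicted with an earlier one, and the first symbol read was kept. The genes and lists were chosen with earlier results of these data known. Genes described singly were the 3 with the smallest p in each NIC comparison, the 4 with the largest difference in each region comparison, the 2 largest in each sex comparison and a list of basement membrane, integrin, ADAMTS, MMP, TIMP and type XI collagen genes with Col4a3bp, 42 in all, of which 1 is not reported here singly but stays in the counts. Genes outside this rule that are named in counts or as examples (Adamts1, Adamts4, Col15a1, Col26a1, Col5a3, Col6a2, Itga2b, Itga3, Itga9, Itgb8 and Mmp16, and Lamc3 between regions and sexes) were chosen after their values were seen. Replicates were separate rats, and numbers pair regions of the same rat. After group means were removed, samples of the same rat correlated across genes with a median of 0.0337, 0.0331 and 0.087 for VTA with core, VTA with shell and core with shell. Prep batches were barely shared between treatments or sexes. Promoter sequences are RefSeq's (GRCr8), and 15 of the 75 genes had no entry.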

Additional observations from a re-analysis of the deposited data

Results flagged for a closer look

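The 60 groups of values checked were those of the genes with the smallest p, the mean deviation of the 75 genes and the summed fibroblast markers. In 4 of the 60 the highest or lowest library lay far from the others. Chance gives about 1 in 20, and 2 of the 4 are values of the same library. Timp3 was at 77.9 CPM in male NAc core NIC 9. The mean log2 deviation of the 75 genes was 0.428 in the same library, 0.397 in female NAc shell SAL 13 and 0.185 in male NAc shell NIC 12.

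The difference between regions differed between the sexes for 13 gene and region pairs given here, in edgeR's interaction test, as the male minus female log2 value. Between VTA and NAc core it was 0.6123 for Itga2b (-0.88 in males and -1.49 in females, adjusted p = 0.03182) and 0.4528 for Adamts1 (adjusted p = 0.03381). It was 0.6319 for Itgb8 (adjusted p = 0.04592), 0.3882 for Adamts4 (adjusted p = 0.0473) and -0.1819 for Itga3 (adjusted p = 0.04751). Between VTA and NAc shell it was 0.8097 for Adamts1 (adjusted p = 0.0008842), 0.3851 for Col9a3 (adjusted p = 0.01083) and 0.8757 for Col14a1 (0.43 in males and -0.44 in females, adjusted p = 0.02213). It was -0.3265 for Mmp16 (adjusted p = 0.02418), 0.4428 for Adamts4 (adjusted p = 0.03033) and 0.2896 for Col5a3 (adjusted p = 0.03073). It was 0.6141 for Col2a1 (adjusted p = 0.04132). Between NAc core and NAc shell it was 0.714 for Col15a1 (adjusted p = 0.03245). Without the 3 libraries that stood apart in region markers, 2 of the 75 genes differed so between VTA and NAc shell. The part of prep batch was not tested. Without the 3 libraries that stood apart, the adjusted p for Col14a1 between VTA and shell was 0.06008.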

How the results depend on the processing

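With prep batch as a covariate, the number of the 75 genes counted in a NIC comparison was 8 in female NAc core, 3 in female NAc shell, 1 in female VTA, 14 in male NAc shell and 4 in male VTA, against 13, 10, 29, 2 and 12, and the larger direction turned in female NAc core (6 higher and 2 lower) and female NAc shell (2 and 1). In those fits the NIC difference rested only on libraries in batches that held both treatments. With all 12 groups in one fit female NAc core gave 4 (2 higher and 2 lower) and female NAc shell 8 (4 and 4). Leaving out each rat in turn gave 9 to 15 in female NAc core, 4 (without NIC 1) to 14 in female NAc shell, 15 (without SAL 12) to 36 in female VTA, 17 to 30 in male NAc core, 1 (without NIC 16) to 6 (without SAL 1) in male NAc shell and 5 (without NIC 13) to 12 in male VTA. Counts were also more than 1.5 times lower without NIC 2, NIC 6, NIC 8 or SAL 13 in female NAc shell, without NIC 6, NIC 8, SAL 11 or SAL 14 in female VTA, and without NIC 10, NIC 12, SAL 2 or SAL 7 in male VTA, and higher without NIC 9, NIC 15 or SAL 3 in male NAc shell.

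With the rat as a block, pairing its regions, 65, 63 and 38 genes differed between VTA and core, VTA and shell and core and shell, and none of these counts moved by over 1.5 times. Core and shell differed in 20 in NIC rats with the block and in 21 in males. Sex counts were 9 in core in NIC rats (7 higher and 2 lower, beside 4.16% of all genes), 2 in shell in SAL rats, 0 in VTA in SAL rats (edgeR, 4 at an unadjusted p under 0.05), 0 in VTA without female VTA NIC 2 (18), and 0 in shell and 0 in VTA with prep batch as a term (10 and 4). The cause of these changes was not tested. Apart from left-out rats, 77 other values of counts under alternatives were within 1.5 times of the reported ones or kept their direction and side of the threshold. Genes at a median near 1 CPM, such as Itgax, rest on few reads.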
